A study of Mus musculus with 43 samples.

Results

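The 10 genes followed here code for transcription factors of adipocyte identity and were measured by RNA-seq of mouse epididymal white fat, the visceral fat pad beside the epididymis. They were Pparg, Cebpa, Cebpb, Klf15, Ebf1, Ebf2, Rxra, Nr1h3, Zfp423 and Ppara, chosen by gene name out of 56748 genes in the files, and all 10 passed the filter on low counts that left 20218 genes for testing. The 43 libraries came from male mice in 5 groups. The SD group (7 libraries) was fed a standard diet with 10% fat, and the HFD group (10 libraries) a diet with 60% fat. The SZ-A 200, SZ-A 400 and SZ-A 600 groups (9, 8 and 9 libraries) were fed the 60% fat diet and treated with 200, 400 or 600 mg/kg/day of SZ-A, an alkaloid preparation from Ramulus Mori (Sangzhi), which is mulberry twig. The labels name no genetic change, strain, age or length of treatment. Nor do they say whether each library is a separate mouse, so the p-values reflect spread among libraries that may be technical in part.

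Adipocytes arise from precursors in the stroma of fat through a cascade of transcription factors. Cebpb is induced early and helps to switch on Pparg and Cebpa, which then sustain each other and drive the genes of lipid storage and insulin response in the mature fat cell. PPARG binds DNA as a heterodimer with RXRA, and EBF1 and EBF2 bind near PPARG at adipocyte enhancers. ZFP423 marks committed precursors and holds white adipocytes back from a thermogenic programme. PPARA, a related receptor, directs fatty acid oxidation, and NR1H3 (LXR alpha) responds to oxysterols.

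Library totals ranged from 32716294 to 44259619 counts. The libraries fell into 2 sets by their share of small noncoding RNA counts, set 1 with 22 libraries (0.00319% to 0.00642%) and set 2 with 21 (0.00992% to 0.0228%), and every group had libraries in both. In 4 libraries RNA of other tissue was found, by genes far above their median over all libraries. Markers of ciliated epithelium summed to 990 CPM (counts scaled to a common library total) in SD library 4 and to 1755 CPM in SZ-A 600 library 6, against a median of 3.96 CPM in HFD. Markers of squamous and sebaceous epithelium summed to 11200 CPM in SZ-A 400 library 3. Markers of the epididymal duct summed to 29700 CPM and those of smooth muscle to 24300 CPM in SZ-A 400 library 6, where adipocyte markers had the lowest sum of the 43 libraries (5670 CPM). All 15 adipocyte markers were detected in every group. Their sum had medians of 60300 CPM in SD, 22900 in HFD, and 36400, 39300 and 52100 in SZ-A 200, 400 and 600. The sum of 20 macrophage markers had medians of 897 CPM in SD, 11000 in HFD, and 8710, 2410 and 3210 in SZ-A 200, 400 and 600, with ranges of 784 to 2710, 1230 to 16400, 1880 to 14000, 569 to 14400 and 986 to 8380. No macrophage marker was at 0 throughout a group. In bulk tissue, fewer cells of a type and less RNA per cell cannot be told apart.

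Levels that can be compared between genes are FPKM, fragments scaled to gene length and library size. By median FPKM over the 43 libraries, the order was Cebpa (280), Pparg (52.1), Nr1h3 (44.1), Cebpb (41.3), Rxra (33.7), Klf15 (14.1), Ebf1 (14.1), Zfp423 (9.8), Ebf2 (3.56) and Ppara (1.09). Cebpa was above Pparg in 43 of 43 libraries, Rxra above Klf15 in 41, Zfp423 above Ebf2 in 41 and Ebf2 above Ppara in 42. The other neighbours traded places: Pparg was above Nr1h3 in 29 of 43 libraries, Nr1h3 above Cebpb in 21, Cebpb above Rxra in 30, Klf15 above Ebf1 in 29 and Ebf1 above Zfp423 in 28. These neighbouring levels did not separate beyond the spread between libraries. In raw counts, the scarcest of the 10, Ppara, had between 40 and 672 counts per library, and Cebpa between 3392 and 40300.

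**Figure D1:**
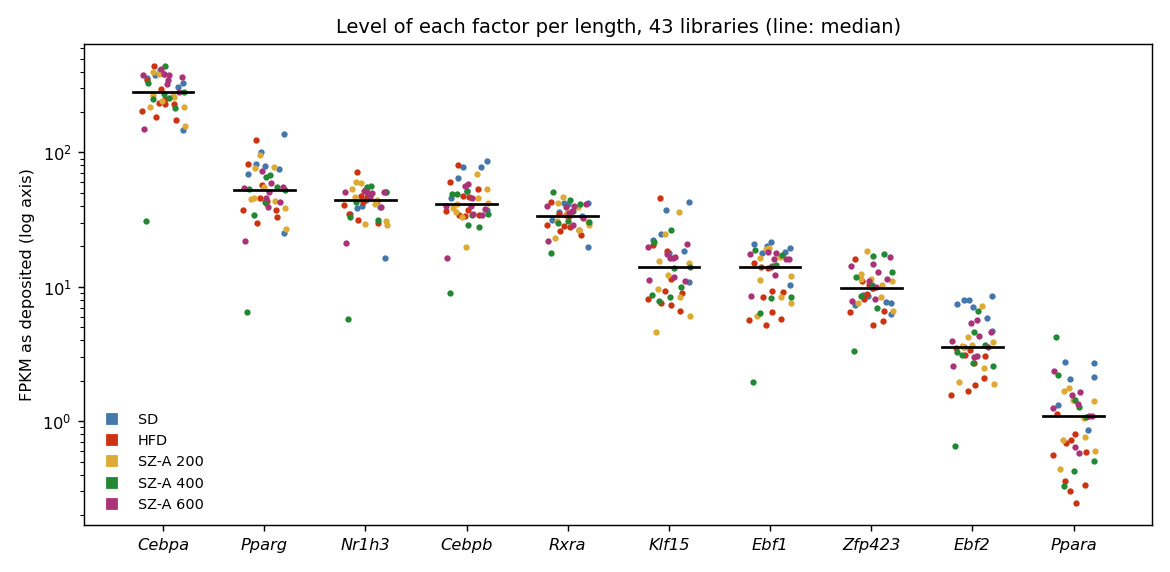
FPKM as deposited (log axis) of each of the 10 genes, 1 point per library coloured by group, with the median of 43 libraries as a line. Cebpa (median 280) lies above the rest, Ebf2 (3.56) and Ppara (1.09) lie lowest, and the genes from Pparg to Rxra overlap.

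RefSeq promoter windows (GRCm38.p6, 250 bases before and 50 after a start site) were matched for 9 of the 10 genes, with 15 windows among them. The deposited counts are per gene and do not separate the starts. Both strands were searched for 7 short motifs of factors linked to this network. The C/EBP motif TTGCNNAA was in 10.8% of all 32851 windows and, among the members, in windows of Pparg and Zfp423. The E-box CACGTG was in 7.15% of windows and, among the members, in that of Klf15. The GC-box GGGCGG was in 35.7% of windows, and in windows of Cebpb, Klf15, Ppara, Pparg, Rxra and Zfp423. The PPAR direct repeat (0.381% of windows), the EBF palindrome (0.904%), the D-box TTATGTAA (0.938%) and the glucocorticoid response motif (0.475%) had no match in the members' windows. A match describes letters and is not a binding site, and no searched motif overlapped another in the windows printed. The Pparg window at chr6:115421816-115422115 is shown for its C/EBP matches, whose first bases lie at -215 and -16 from the start site. The Klf15 window at chr6:90462326-90462625 is shown for its E-box matches, whose first bases lie at -228, -172 and -3. The Ppara window at chr15:85735526-85735825 and the Ebf1 windows at chr11:44617850-44618149 and chr11:44619978-44620277 are shown because Ppara and Ebf1 were among the genes that were lower in HFD. All 5 are on the plus strand, and capitals mark matches to the searched motifs.
Pparg: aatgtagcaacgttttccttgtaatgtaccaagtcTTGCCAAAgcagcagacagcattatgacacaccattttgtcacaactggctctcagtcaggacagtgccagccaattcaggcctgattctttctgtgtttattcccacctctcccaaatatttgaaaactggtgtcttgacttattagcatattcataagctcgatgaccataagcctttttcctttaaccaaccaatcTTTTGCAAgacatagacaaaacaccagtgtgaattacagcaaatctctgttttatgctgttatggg
Klf15: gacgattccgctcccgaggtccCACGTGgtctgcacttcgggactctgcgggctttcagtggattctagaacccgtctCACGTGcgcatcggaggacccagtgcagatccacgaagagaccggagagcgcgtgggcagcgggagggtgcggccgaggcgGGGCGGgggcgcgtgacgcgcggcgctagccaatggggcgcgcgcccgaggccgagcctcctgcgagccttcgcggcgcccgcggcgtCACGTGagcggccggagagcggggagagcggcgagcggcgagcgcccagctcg
Ppara: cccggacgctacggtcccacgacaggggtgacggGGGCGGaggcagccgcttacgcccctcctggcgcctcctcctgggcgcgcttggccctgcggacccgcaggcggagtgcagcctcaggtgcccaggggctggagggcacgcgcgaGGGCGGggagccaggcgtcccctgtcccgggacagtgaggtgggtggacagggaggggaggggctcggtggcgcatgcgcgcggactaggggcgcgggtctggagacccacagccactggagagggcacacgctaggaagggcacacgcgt
Ebf1, first window: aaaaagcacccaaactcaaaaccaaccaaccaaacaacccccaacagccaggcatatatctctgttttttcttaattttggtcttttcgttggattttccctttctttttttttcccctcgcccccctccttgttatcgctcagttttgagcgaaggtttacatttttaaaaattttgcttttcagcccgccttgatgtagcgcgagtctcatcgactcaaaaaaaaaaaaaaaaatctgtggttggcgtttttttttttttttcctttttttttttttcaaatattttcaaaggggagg
Ebf1, second window: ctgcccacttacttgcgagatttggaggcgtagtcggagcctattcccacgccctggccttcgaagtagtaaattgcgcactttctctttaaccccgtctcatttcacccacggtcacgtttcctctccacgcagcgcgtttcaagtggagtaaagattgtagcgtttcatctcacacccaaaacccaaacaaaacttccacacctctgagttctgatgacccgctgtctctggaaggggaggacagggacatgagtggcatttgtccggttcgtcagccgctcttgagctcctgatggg

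The first comparison asked how the high-fat diet changed these factors. Ebf2, Ebf1 and Ppara fell in HFD against SD, to 0.384, 0.522 and 0.313 of the SD level, and none of the 10 genes rose. The call rule was an adjusted p (Benjamini-Hochberg, over 20218 genes) under 0.05 in edgeR's quasi-likelihood test with group as its only term, and calls below are from that fit unless another is named. By this rule 3 of 10 members were called lower, where 13.3% of all genes were called lower and 31.7% were called either way. These 3 are the enhancer partners of PPARG and the oxidative receptor, while the core pair Pparg and Cebpa was not called in that fit. On the same 43 libraries limma voom with quality weights called 7 members lower, with Pparg at -0.88 (adjusted p = 4.69e-05), Cebpa at -0.57 (0.000734), Klf15 at -1.34 (4.39e-06) and Cebpb at -0.5 (0.00625) besides those 3. It also called 89 of the 109 genes of the lists described below, where the edgeR fit called 39. Its share of all genes was not counted, so its member counts here and below have no background to be read against. The sum of macrophage markers was higher and that of adipocyte markers lower in the same HFD libraries (medians above), and their part in these falls was not tested.

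Ebf2, an early B-cell factor that marks beige and brown precursors (chr14:67470741-67668367, coordinates here and below as the files give them), showed no overlap between the diets. The files' coordinates do not match the build of the promoter windows. Normalised CPM of Ebf2 were 31.4, 50.4 and 59.7 (lowest, median and highest) in SD and 11, 20.3 and 24.6 in HFD. All 10 HFD libraries lay below the lowest SD library, SD 4, which held RNA of other tissue. The fitted log2 fold change was -1.38 (SE 0.26, adjusted p = 0.000314). Ebf1, its close relative and a factor of both fat and B cells (chr11:44508144-44898918), had 97, 189 and 211 CPM in SD and 52.2, 86.2 and 145 in HFD. The diets overlapped only through SD library 4 at 97 CPM, as the next SD library was at 170. The log2 fold change of Ebf1 was -0.94 (SE 0.28, adjusted p = 0.0104). The HFD libraries of set 1, with macrophage marker sums of 11650 to 16420 CPM, had 52.2 to 94 CPM of Ebf1, and those of set 2, with sums of 1231 to 10290 CPM, had 82.5 to 145.

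Ppara, the receptor for fatty acids that induces their oxidation (chr15:85619184-85687020), had 3.2, 7.6 and 10.3 CPM in SD and 0.956, 2.22 and 4.34 in HFD. Of the 10 HFD libraries 8 lay below the lowest SD library, and HFD libraries 5 and 10 overlapped with it. Its log2 fold change was -1.67 (SE 0.38, adjusted p = 0.0011). Removing each of the 17 SD and HFD libraries in turn left Ebf2, Ebf1 and Ppara called every time, with highest adjusted p of 0.00111, 0.0229 and 0.00388.

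Among the core factors, Pparg (chr6:115337912-115467360), the master regulator of adipogenesis, had 71.1, 234 and 402 CPM in SD and 88.7, 129 and 360 in HFD. The ranges overlapped widely, since the lowest library of all 17 was SD 4 and the second highest was HFD 8. Its log2 fold change was -0.58 (95% interval -1.2 to 0.05, adjusted p = 0.157). Cebpa (chr7:34818718-34821353), which keeps Pparg on and confers insulin response, had 370, 918 and 1050 CPM in SD and 461, 622 and 1160 in HFD, a log2 fold change of -0.31 (-0.84 to 0.23, adjusted p = 0.394). Rxra (chr2:27566452-27652969), the partner of PPARG, had 120, 221 and 267 CPM in SD and 152, 184 and 269 in HFD, with -0.15 (-0.48 to 0.18, adjusted p = 0.499). For these 3 genes the intervals include 0, which does not show that the levels were equal.

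Cebpb (chr2:167530835-167532338), the early inducer, had 53.8, 94.5 and 131 CPM in SD and 51.3, 64.9 and 121 in HFD, a log2 fold change of -0.39 (-0.89 to 0.1, adjusted p = 0.23). Klf15 (chr6:90439558-90452220), a glucocorticoid-induced factor of amino acid and lipid use, had 29, 60.6 and 120 CPM in SD and 18.9, 26.1 and 127 in HFD, with -0.75 (-1.45 to -0.05, adjusted p = 0.102). The highest Klf15 value of the 17 was in HFD library 8, whose macrophage markers (1231 CPM) were the lowest and whose adipocyte markers (86230 CPM) were the highest of the HFD group. Without this library Klf15 was called at -1.16 (adjusted p = 0.00623) and Pparg at -0.82 (adjusted p = 0.0355), which made 5 members lower.

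Zfp423 (chr8:88388438-88686223) had 33.9, 42.5 and 54.9 CPM in SD and 29.8, 48.3 and 89 in HFD, with a log2 fold change of 0.19 (-0.28 to 0.65, adjusted p = 0.564). Nr1h3 (chr2:91014406-91033179) had 40, 95.6 and 128 CPM in SD and 74.9, 110 and 179 in HFD, with 0.25 (-0.26 to 0.77, adjusted p = 0.47). Neither was called. Nr1h3 is also expressed by macrophages, 18 of whose 20 markers rose in HFD, and how much of its RNA came from them was not tested.

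**Figure D2:**
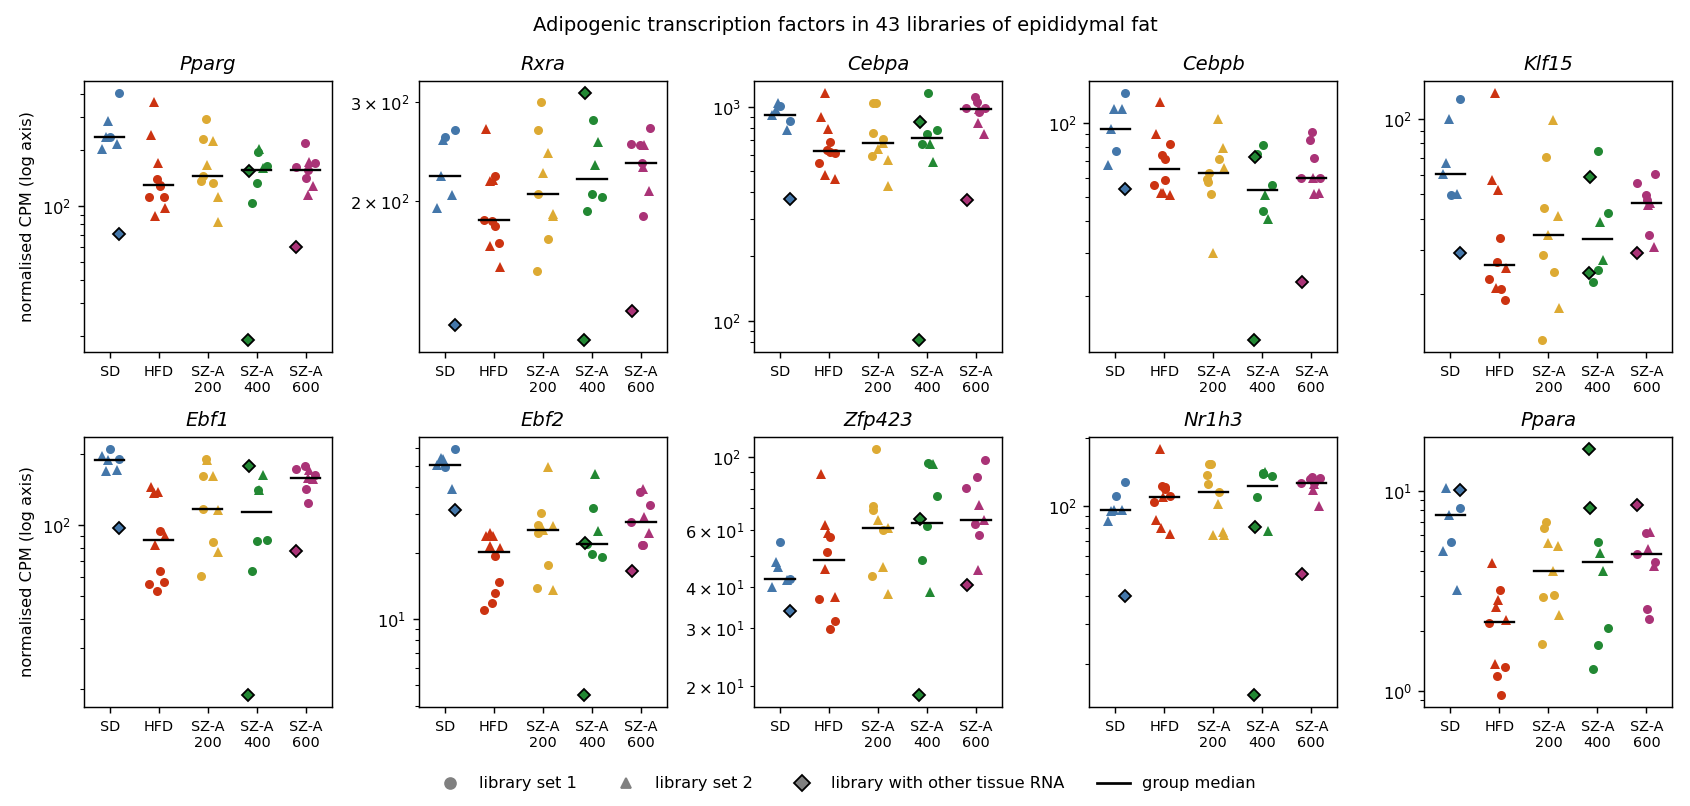
Normalised CPM (log axis) of each gene, 1 point per library by group, with circles for library set 1, triangles for set 2, outlined diamonds for the 4 libraries with other tissue RNA, and a line at the group median. Ebf2 separates SD (31.4 to 59.7) from HFD (11 to 24.6), and SZ-A 400 library 6 is the lowest of its group for 8 genes and the highest for Ppara (16.2).

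The number of members called in HFD depended on the libraries that held other tissue and on the library set. Without the 4 libraries with other tissue RNA, 6 members were lower (15.5% of all genes): Ebf2 (-1.48, adjusted p = 1.65e-05), Ebf1 (-1.06, 0.000528), Ppara (-1.59, 0.000362), Pparg (-0.75, 0.0157), Cebpa (-0.45, 0.0442) and Cebpb (-0.5, 0.0472). With library set as a further term there were 7 (19.7% of all genes), with Klf15 at -0.92 (adjusted p = 0.0394). Within set 1, where only 2 SD libraries stood against 5 of HFD, 7 members were lower (18.8% of genes), with Ebf2 at -2.01, Ebf1 at -1.7 and Ppara at -2.02. Within set 2, 0 members were called (0.669% of genes lower), and 2 had an unadjusted p under 0.05 in edgeR. The set 2 values were -1 for Ebf2 (adjusted p = 0.176), -0.49 for Ebf1 (0.511) and -1.44 for Ppara (0.0719). Set 2 without SD library 4, SZ-A 400 library 6 and SZ-A 600 library 6 had 2 members lower (3.56% of genes), Ebf2 (-1.11, adjusted p = 0.0212) and Ppara (-1.29, 0.0337), and Ebf1 was at -0.63 (0.075). The fall of Ebf2 was the one of the 3 with no overlap between diets, and all 3 kept a negative value in each of these settings.

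Lists of genes that work with these factors were read beside them. Of 28 targets of PPARG and CEBPA, 2 were higher and 4 lower in HFD, with a median log2 fold change of -0.53 where all genes had -0.05. Leptin (Lep), the satiety hormone, rose from 460 ± 176 (SD, n = 7) to 1720 ± 623 CPM (SD, n = 10), and Dgat2, which makes triglyceride, rose by 1.33 on the log2 scale (SE 0.35, adjusted p = 0.00396). Acaca, which commits carbon to fatty acid synthesis, fell by 1.37 (SE 0.34, adjusted p = 0.00235), and Pck1, the enzyme of glyceroneogenesis, fell by 1.69 (SE 0.54, adjusted p = 0.0163). Of 17 coregulators, 1 rose and 7 fell (median -0.34). Ppargc1a, the coactivator of oxidative genes, fell from 11.9 ± 5.22 (n = 7) to 2.95 ± 1.14 CPM (n = 10), a log2 fold change of -2.02 (SE 0.41, adjusted p = 0.000487). Nrip1, a corepressor of oxidative genes, fell as well, by 1.23 (SE 0.24, adjusted p = 0.000371), and so did the deacetylase Sirt1, by 0.66 (SE 0.1, adjusted p = 5.92e-05).

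Of 21 other transcription factors of adipogenesis, 1 rose and 9 fell (median -0.44). Egr2, an early inducer, rose by 1.56 (SE 0.57, adjusted p = 0.0324), while Nfib, Nfia and Klf4 fell by 0.55, 0.83 and 0.86 (adjusted p = 0.000727, 0.00139 and 0.00455). Of 14 inhibitors of adipogenesis, 1 rose and 4 fell (median -0.51). The stress factor Ddit3 rose from 12.3 ± 1.4 (n = 7) to 19.8 ± 3.8 CPM (n = 10), and Nr2f2, Foxc2 and Klf3 fell by 1.08, 0.86 and 0.37 (adjusted p = 0.00474, 0.0109 and 0.0178). In both lists more of the called genes were lower than higher.

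Targets of the 2 lipid-sensing receptors were mixed. Of 10 LXR targets, 2 rose and 2 fell (median -0.15): the phospholipid carrier Pltp rose by 2.55 (SE 0.46, adjusted p = 0.000228) and Smpdl3a by 0.71 (SE 0.26, adjusted p = 0.0356), and Mylip and Srebf1 fell by 0.74 and 0.45 (adjusted p = 0.00348 and 0.0472). Of 22 PPARA targets, 1 rose and 6 fell (median -0.29). Cpt1a, which carries fatty acids into oxidation and is also expressed outside adipocytes, rose by 1.2 (SE 0.24, adjusted p = 0.000462). Acot2 and Ehhadh, enzymes of fatty acid use in mitochondria and peroxisomes, fell by 0.71 and 0.8 (adjusted p = 0.00339 and 0.0184). In all, 39 of 109 distinct genes of these 6 lists were called, beside 31.7% of all genes. Of the 39, 8 were higher and 31 lower, whereas 18.4% of all genes were called higher and 13.3% lower. In the same contrast 18 of 20 macrophage markers, 5 of 10 preadipocyte markers and 0 of 10 endothelial markers were higher, and 3 of the endothelial markers were lower. How far cell makeup moved these lists was not tested.

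The next comparisons asked whether SZ-A given with the high-fat diet changed the factors. They share the HFD libraries with the comparison of the diets, so their values are given side by side and are not independent of it. At 200 mg/kg/day, edgeR called 0 of 10 members against HFD, where 0.00989% of all genes were called. In edgeR 1 member, Ppara, had an unadjusted p under 0.05, and DESeq2, limma voom and limma-trend on log2 FPKM also called 0. At 400 mg/kg/day, Ppara alone was called higher (2.46% of all genes were). At 600 mg/kg/day, Ppara alone was called higher in the edgeR fit with group only (5.12% of all genes higher, 11.6% either way), and limma voom with quality weights called 7 members higher on the same libraries. For limma voom the share of all genes was not counted. At 400 limma voom called Zfp423 (0.58, adjusted p = 0.0479) and not Ppara.

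Ppara had 1.73, 3.99 and 7.01 CPM (lowest, median and highest) at 200, 1.29, 4.44 and 16.2 at 400, and 2.3, 4.85 and 8.46 at 600 mg/kg/day, beside 0.956, 2.22 and 4.34 in HFD. All 9 libraries of SZ-A 600 lay above the HFD median and 6 lay above the highest HFD library. At 400 the highest values, 16.2 and 8.26 CPM, were in libraries 6 and 3, and at 600 the highest, 8.46, was in library 6, which are 3 of the 4 libraries with other tissue RNA. The log2 fold changes against HFD were 0.93 (SE 0.36, adjusted p = 0.562), 1.3 (SE 0.37, adjusted p = 0.04) and 1.14 (SE 0.36, adjusted p = 0.0331) at 200, 400 and 600. Without the 4 libraries, Ppara was at 0.53 (adjusted p = 0.614) at 400, where 0.0399% of genes were then called higher, and at 0.99 (adjusted p = 0.0337) at 600. The call at 400 thus ended without those 4 libraries and that at 600 did not, though both also ended when certain single libraries were left out.

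Single libraries also decided the Ppara calls. At 400, adjusted p rose to 0.263 without SZ-A 400 library 6 (log2 fold change 0.84) and to 0.105 without library 3 (1.19). It lay between 0.052 and 0.0796 without SZ-A 400 library 1 or HFD libraries 1, 2, 3, 4, 6 or 7, with log2 fold changes of 1.21 to 1.31. At 600, adjusted p of Ppara was 0.0819 without SZ-A 600 library 6 (1.02). It lay between 0.0545 and 0.0642 without SZ-A 600 library 5 or 7 or HFD library 1, 2, 3 or 4, with log2 fold changes of 1.05 to 1.13. The size of the difference at 600 changed little (1.02 to 1.3 over 19 libraries left out), while the adjusted p crossed the threshold with 7 of them. Within set 1 Ppara at 600 was at 1.24 (adjusted p = 0.0739) and within set 2 at 1.16 (0.301).

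Ebf1 and Ebf2 had intermediate levels at the doses. Ebf1 had 60.8, 117 and 191 CPM at 200, 18.9, 114 and 179 at 400, and 77.3, 158 and 179 at 600, beside 52.2, 86.2 and 145 in HFD. At 600, 8 of 9 libraries lay above the HFD median and 6 lay above the highest HFD library, and the lowest, at 77.3, was library 6 with other tissue RNA. The log2 fold change of Ebf1 against HFD was 0.49 at 200, 0.26 at 400 and 0.71 at 600 (adjusted p = 0.751, 0.656 and 0.0698). Ebf2 had 13.6, 25.5 and 49.5 CPM at 200, 4.5, 22.1 and 45.8 at 400, and 16.5, 27.6 and 39.2 at 600, beside 11, 20.3 and 24.6 in HFD. Its log2 fold change was 0.45, 0.36 and 0.59 (adjusted p = 0.756, 0.47 and 0.101). At 600, 8 of 9 libraries were above the HFD median for Ebf2 too, and 6 lay above its highest HFD library.

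Neither Ebf gene was called at 600 in the edgeR fit with group only. On the same libraries, edgeR with library set as a term called Ebf1 (0.74, adjusted p = 0.0428), and limma voom called Ebf1 (1.18, 3.97e-06) and Ebf2 (0.91, 4.95e-05). Without the 4 libraries with other tissue RNA both were called higher, Ebf1 at 0.78 (adjusted p = 0.018) and Ebf2 at 0.65 (0.0338), which made 3 members higher with Ppara (3.86% of all genes). With library set as a further term 4 members were higher (10.4% of genes): Ebf1 (0.87, adjusted p = 0.00276), Ebf2 (0.73, 0.00577), Cebpa (0.43, 0.0454) and Ppara (1.05, 0.0122). Ebf1 was also called when HFD library 8, 9 or 10 was left out (0.8, 0.78 and 0.8, adjusted p = 0.0369, 0.0461 and 0.0411). Within set 1 there were 4 members higher (16.8% of genes), with Ebf1 at 1.31 (adjusted p = 0.00433) and Ebf2 at 1.06 (0.00301). Within set 2, 0 of 10 were called in edgeR (0.0183% of genes higher, 1 member with an unadjusted p under 0.05), and Ebf1 and Ebf2 were both at 0.25 (adjusted p = 0.851 and 0.852). The HFD libraries of set 1 had macrophage marker sums of 11650 CPM and more, and those of set 2 had 10290 CPM and less. The difference between the sets was not tested.

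**Figure D3:**
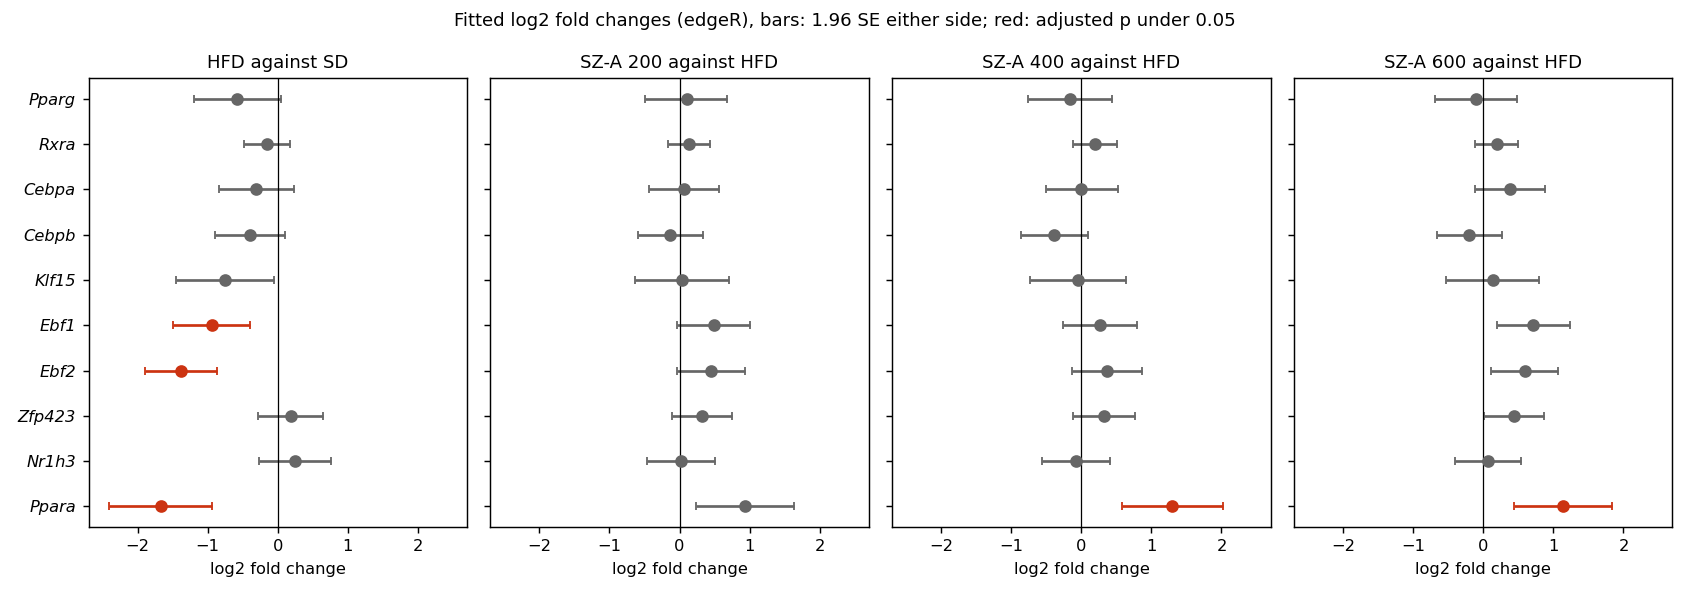
Fitted log2 fold changes of the 10 genes in 4 comparisons, with bars for the 95% interval from the SE and red for adjusted p under 0.05. Ebf1 (-0.94), Ebf2 (-1.38) and Ppara (-1.67) are red on the left of 0 in HFD against SD, and Ppara is red on the right at 400 (1.3) and 600 (1.14).

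Pparg, Cebpa and Rxra were not called at any dose in the edgeR fit with group only. At 600 limma voom with quality weights called Cebpa (0.65, adjusted p = 0.00032) and Rxra (0.35, 0.00694) higher. Pparg had 82.2, 145 and 292 CPM at 200, 19.2, 156 and 201 at 400 and 60, 155 and 217 at 600, with log2 fold changes against HFD of 0.1, -0.16 and -0.1 (adjusted p = 0.973, 0.836 and 0.848). The interval at 600 ran from -0.69 to 0.48. Cebpa had 427, 683 and 1050 CPM at 200, 81.7, 714 and 1160 at 400 and 366, 984 and 1120 at 600, with 0.06, 0 and 0.38 (adjusted p = 0.982, 0.996 and 0.331). At 600, 8 of 9 Cebpa values were above the HFD median, though none was above the highest HFD library. Rxra had medians of 206, 219 and 234 CPM with log2 fold changes of 0.14, 0.19 and 0.19 (adjusted p = 0.899, 0.567 and 0.436). For each of these 3 genes the lowest value of SZ-A 400 was in library 6 and that of SZ-A 600 was in library 6, both of which held other tissue RNA.

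Cebpb, the early inducer, had medians of 62.8, 53.5 and 59.7 CPM at 200, 400 and 600, and its log2 fold changes were -0.14, -0.39 and -0.2 (adjusted p = 0.94, 0.417 and 0.6). Klf15 had medians of 34.4, 33 and 46.1 CPM, and 0.03, -0.05 and 0.13 (adjusted p = 0.994, 0.963 and 0.835). All 9 Klf15 values of SZ-A 600 lay above the HFD median of 26.1 CPM, but HFD library 8 at 127 lay above all of them. Zfp423 had medians of 60.7, 63 and 64.2 CPM, beside 48.3 in HFD and 42.5 in SD, and log2 fold changes against HFD of 0.32, 0.32 and 0.44 (adjusted p = 0.815, 0.47 and 0.179). Nr1h3 had medians of 115, 122 and 126 CPM, and 0.02, -0.08 and 0.06 (adjusted p = 0.995, 0.912 and 0.892). None of these 4 genes was called at any dose in the edgeR fit with group only. Limma voom called Klf15 (0.85, adjusted p = 0.00242) and Zfp423 (0.75, 0.000165) higher at 600, and Zfp423 at 400 as given above.

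Along the 4 high-fat groups a linear trend was fitted per 200 mg/kg/day. Ppara was called, at 0.38 on the log2 scale per step (SE 0.11, adjusted p = 0.0229), where 6.82% of all genes were called higher. Ebf1 was at 0.19 (SE 0.08, adjusted p = 0.117) and Ebf2 at 0.17 (SE 0.08, adjusted p = 0.134). When the 4 libraries with other tissue RNA were left out the calls were others: Ebf1 (0.22, adjusted p = 0.0361) and Ebf2 (0.21, 0.0363) were called, where 3.55% of genes were called higher, and Ppara was at 0.26 (0.0794). Without SZ-A 600 library 6 alone, Ppara was at 0.34 (adjusted p = 0.0609), and without SZ-A 400 library 6 alone Ebf1 was at 0.2 (0.048). The other 7 genes were not called in the edgeR fit with group only, and their slopes ran from -0.09 (Cebpb) to 0.13 (Zfp423). In limma voom 7 members were called in the trend, with Cebpa, Klf15, Rxra, Zfp423, Ebf1 and Ebf2 besides Ppara.

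The treated groups were also compared with SD. Ebf2 was lower at 200 (log2 fold change -0.93, SE 0.27, adjusted p = 0.0179, with 4.59% of genes called lower) and at 400 (-1.02, SE 0.28, adjusted p = 0.0169, with 2.6% of genes called lower). It was the only member called in either comparison in that edgeR fit, and limma voom called 8 members in each. At 600 it was at -0.79 (SE 0.27, adjusted p = 0.0842). In SZ-A 600 against SD, edgeR called 0 of 10 members (3.36% of genes were called), 4 had an unadjusted p under 0.05, DESeq2 called 1, limma voom 6 and limma-trend 0. Ebf1 was at -0.23 and Ppara at -0.53 in that comparison, with 95% intervals of -0.8 to 0.34 and -1.29 to 0.22. Cebpb at 400 was at -0.78 (SE 0.27, adjusted p = 0.0517). It was called without SD library 4 (-0.91, adjusted p = 0.0257), SZ-A 400 library 3 (-0.85, 0.0412) or SZ-A 400 library 5 (-0.88, 0.0448). Klf15 at 200 was at -0.72 (adjusted p = 0.171), and at -1 (0.0456) without SZ-A 200 library 9. That Ebf2 was called at 200 and 400 and not at 600 does not show that the doses differ, and the doses were not tested against each other.

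The same lists were read at each dose against HFD. At 200, edgeR called 0 of the 109 list genes, and limma voom called 5. At 400, 6 were called, all higher. These included Gata2 and Gata3, inhibitors of adipogenesis, and Klf5 and Cidea. Gata3 was at 18 ± 43.8 CPM (SD, n = 8) against 0.975 ± 0.473 (SD, n = 10), a spread wider than its mean, and without the 4 libraries with other tissue RNA 0 list genes were called at 400. At 600, 12 of 109 list genes were called, 10 of them higher, beside 11.6% of all genes called either way. The share of list genes called either way was thus near that of all genes. By direction it was not, as 5.12% of all genes were called higher and 6.47% lower. Of PPARG and CEBPA targets 2 of 28 rose (median 0.51, all genes 0.06): the insulin-responsive glucose transporter Slc2a4 by 0.76 (SE 0.25, adjusted p = 0.0383) and the acyl-CoA synthetase Acsl1 by 0.72 (SE 0.24, adjusted p = 0.0455). Of coregulators 2 of 17 rose and 1 fell (median 0): Ppargc1a rose by 1.19 (SE 0.39, adjusted p = 0.0394) with 6.74 ± 7.53 CPM (SD, n = 9), a spread wider than its mean, Sirt1 by 0.27 (SE 0.09, adjusted p = 0.0431) while the coactivator Ncoa3 fell by 0.53 (SE 0.16, adjusted p = 0.0271).

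At 600, 2 of 21 other adipogenic factors rose (median 0.04), Nfib by 0.43 (SE 0.11, adjusted p = 0.0137) and Srebf1, the driver of lipid synthesis, by 0.54 (SE 0.16, adjusted p = 0.0294). Srebf1 was also the 1 of 10 LXR targets that was called (median -0.03). Of 14 inhibitors, Foxc2 and Nr2f2 rose, by 0.96 and 0.87 (adjusted p = 0.0131 and 0.0344), and Ddit3 fell from 19.8 ± 3.8 (n = 10) to 13.9 ± 2.67 CPM (n = 9) (adjusted p = 0.0174). Of 22 PPARA targets 2 rose (median 0.3), among them Acot2 by 0.6 (SE 0.17, adjusted p = 0.0213). In the same comparison 8 of 20 macrophage markers, 3 of 10 preadipocyte markers and 5 of 8 B cell markers were lower, beside 6.47% of all genes. Of 15 adipocyte markers 1 was higher, beside 5.12% of all genes. Their part in the list values was not tested.

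Across libraries, most of the factors varied together. Log2 CPM of Pparg was set against each of the other 9 genes, and each of the 10 against the mean log2 CPM of the macrophage markers, which made 19 relations with two-sided permutation tests. Over 43 libraries, Pearson's r of Pparg with Cebpa was 0.876 (permutation p = 1e-05, the smallest the resamples can give, adjusted p = 2.37e-05) and Spearman's rho was 0.776 (p = 1e-05). Without the 2 libraries farthest from the median, SZ-A 400 library 6 and SZ-A 600 library 6, r was 0.757. It was 0.657 in set 1 and 0.934 in set 2 (permutation, adjusted p = 0.000833 and 9.5e-05). Pparg with Klf15 had r = 0.701 and rho = 0.815 over 43 libraries (both permutation p = 1e-05, adjusted 2.37e-05), and 0.707 without its 2 farthest libraries, 0.814 in set 1 and 0.756 in set 2. Pparg with Ebf1 had r = 0.783 and rho = 0.744 (both permutation p = 1e-05, adjusted 2.37e-05), and 0.69, 0.77 and 0.888 in the same 3 checks.

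The relation of Pparg with Rxra was of like size, with r = 0.781 and rho = 0.743 (both permutation p = 1e-05, adjusted 2.37e-05), and 0.703, 0.692 and 0.838 in those checks. Pparg with Ebf2 had r = 0.733 and rho = 0.675 (both permutation p = 1e-05, adjusted 2.37e-05), and 0.563, 0.804 and 0.797. The relations with Cebpb and Nr1h3 rested more on a few libraries. For Cebpb, r fell from 0.701 to 0.439 without the 2 farthest libraries and was 0.219 in set 1 (permutation, adjusted p = 0.361). For Nr1h3, r fell from 0.758 to 0.507 and was 0.396 in set 1 (permutation, adjusted p = 0.0897). Zfp423 had r = 0.532 over 43 libraries, 0.355 in set 1 (permutation, adjusted p = 0.123) and 0.634 in set 2. Without the 4 libraries with other tissue RNA, r with Pparg was 0.844 for Klf15, 0.723 for Cebpa, 0.688 for Rxra, 0.683 for Ebf1 and 0.664 for Ebf2. For Cebpb, Nr1h3 and Zfp423 it was then 0.429, 0.395 and 0.275 (permutation, adjusted p = 0.00824, 0.0161 and 0.106). Ppara had no such relation over 43 libraries, with r = -0.0335 and rho = 0.279 to Pparg (permutation, adjusted p = 0.929 and 0.0837). Over the 39 libraries without other tissue RNA its r with Pparg was 0.522 (permutation, adjusted p = 0.00111). Its r was 0.774 in set 1 (adjusted p = 4.22e-05) and -0.436 in set 2 (permutation, adjusted p = 0.0865), and 0.182 in set 2 without the 3 libraries of that set with other tissue RNA (permutation, adjusted p = 0.498).

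Several factors also varied with macrophage markers. Over 43 libraries Ppara had r = -0.78 and rho = -0.775 (both permutation p = 1e-05, adjusted 2.37e-05), and -0.753 without HFD library 3 and SZ-A 400 library 6, the 2 farthest. Klf15 had r = -0.647 and rho = -0.691 (both permutation p = 1e-05, adjusted 2.37e-05), and -0.717 without those 2. Ebf1 had r = -0.445 (permutation p = 0.00219, adjusted 0.00378) and Ebf2 -0.438 (permutation p = 0.00292, adjusted 0.00462), and without those 2 libraries they had -0.757 and -0.704. For Pparg, Cebpa, Cebpb, Rxra and Zfp423 r was -0.211, -0.0256, 0.0981, -0.247 and -0.0106. None of these passed (permutation, adjusted p from 0.147 to 0.945). Nr1h3 had a positive r, 0.342 (permutation, adjusted p = 0.0277), and a rho of 0.209 (0.199). By rho, Pparg (-0.523), Cebpa (-0.362) and Rxra (-0.422) passed (permutation, adjusted p = 0.000684, 0.0226 and 0.00721). In set 1 (22 libraries) r was -0.895 for Ebf1, -0.774 for Ebf2, -0.9 for Rxra, -0.91 for Ppara, -0.852 for Klf15, -0.776 for Pparg and -0.769 for Cebpa. In set 2 (21 libraries) the same r lay between -0.559 (Ppara) and 0.0277 (Rxra), and of the 10 only Ppara had an adjusted p under 0.05 (0.0172). The pooled relations of Ebf1 and Ebf2 thus did not hold in set 2 as deposited (-0.00605 and -0.112). Klf15 kept a negative value there, -0.47, that did not pass (permutation, adjusted p = 0.0608).

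Without the 3 set 2 libraries with other tissue RNA, 18 libraries remained, and r in set 2 was -0.853 for Pparg, -0.829 for Ebf1, -0.792 for Cebpa, -0.753 for Ebf2, -0.727 for Klf15 and -0.58 for Rxra (permutation, adjusted p from 0.000127 to 0.0198). For these 6 factors both sets then had negative values that passed. The permutations shuffled libraries of all 5 groups together, so differences between groups are part of these r. Ppara in these 18 libraries had -0.444 (permutation, adjusted p = 0.0828), and Cebpb, Nr1h3 and Zfp423 had -0.463, -0.339 and -0.102 (permutation, adjusted p = 0.0727, 0.201 and 0.685). Over all 39 libraries without other tissue RNA, Ebf1 had -0.87, Ebf2 -0.843, Klf15 -0.797, Pparg -0.795, Ppara -0.733, Rxra -0.662 and Cebpa -0.617, and Nr1h3 had 0.0209 and Zfp423 -0.232 (permutation, adjusted p = 0.899 and 0.164). CPM are shares of 1 library total, so genes of 1 cell type can fall in CPM where those of another rise. With group and library set removed over all 43 libraries, r was -0.653 for Ppara, -0.628 for Klf15 and -0.395 for Rxra (permutation, adjusted p = 2.11e-05, 2.11e-05 and 0.0158). Ebf1, Pparg, Cebpa and Ebf2 then had -0.311, -0.29, -0.138 and -0.106 (permutation, adjusted p = 0.0663, 0.0871, 0.451 and 0.554). Zfp423, Nr1h3 and Cebpb had -0.246, 0.0886 and 0.152. How much of these relations comes from group or cell makeup was not tested.

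**Figure D4:**
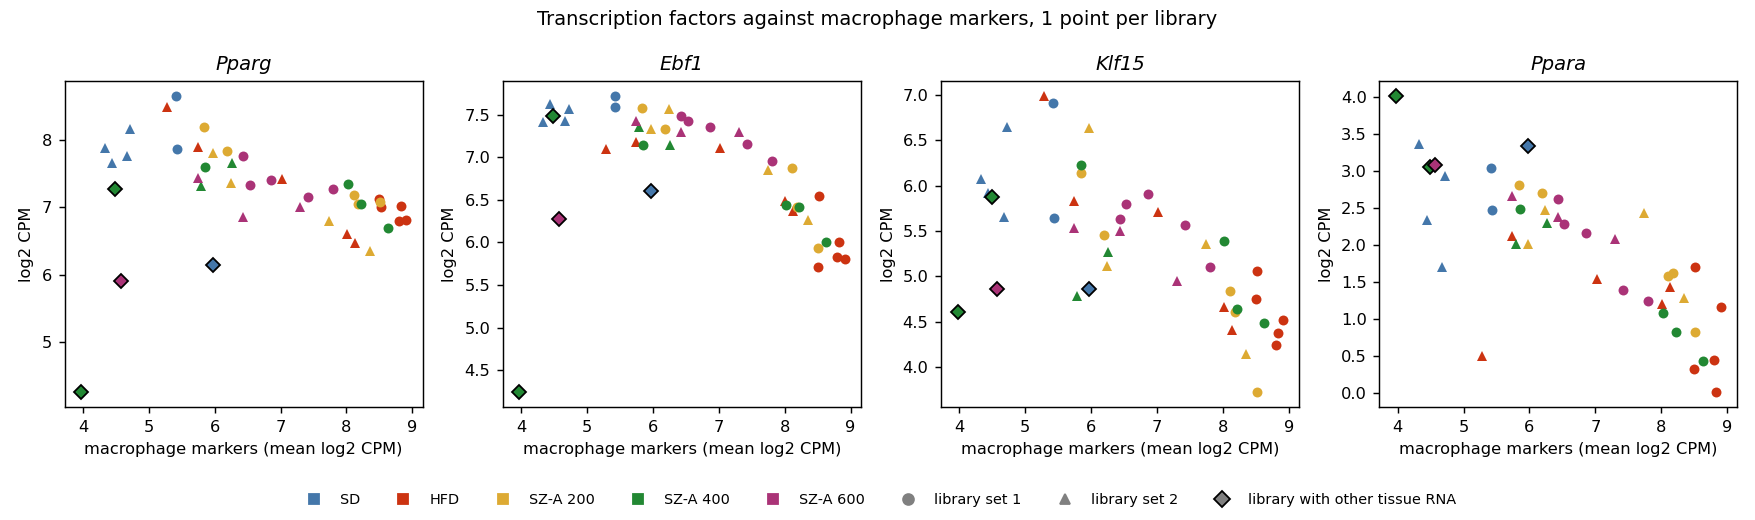
Log2 CPM of Pparg, Ebf1, Klf15 and Ppara against the mean log2 CPM of 20 macrophage markers, 1 point per library, with outlined diamonds for the 4 libraries with other tissue RNA. The points mostly fall from left to right for each gene, with diamonds as exceptions. At low macrophage markers some diamonds lie far below the others for Pparg and Ebf1, and some lie low for Klf15. For Ppara the diamonds lie at the top.

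**Figure D5:**
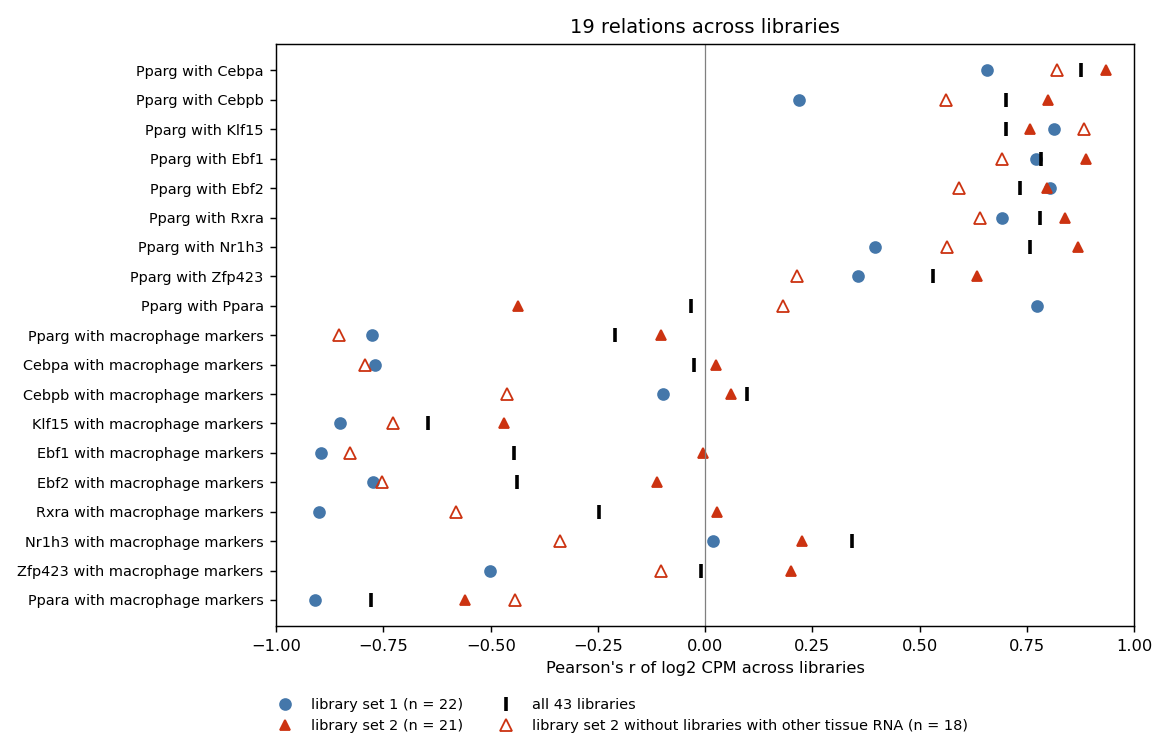
Pearson's r of 19 relations (x axis) in library set 1, in set 2, in set 2 without libraries with other tissue RNA (open triangles) and over all 43 libraries (bars). For Ebf1 with macrophage markers the values are -0.895, -0.00605, -0.829 and -0.445, so the open triangle lies close to set 1 and the filled one near 0.

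After group and library set were removed from log2 CPM, the genes whose residuals were most like those of each member were found among 16045 others over 43 libraries. Pearson's r is given as a description, and the 4 libraries with other tissue RNA were included. With only group removed, r was 0.964 for Lipe with Pparg and 0.911 for Plin1 with Cebpa. It was lower for some others, at 0.397 for Zfp948 with Cebpb and 0.704 for Fcgrt and 0.775 for Gsn with Ebf2. With both removed these 3 had 0.773, 0.882 and 0.89. For some it was higher with only group removed, such as Acp5 with Nr1h3 (0.95, and 0.932 with both). For Pparg the 3 were Lipe (0.968), the hormone-sensitive lipase, Ormdl3 (0.959) and Hrct1 (0.958). For Cebpa they were Plin1 (0.964), the coat protein of the lipid droplet, Slc1a5 (0.954) and Fabp4 (0.952), the fatty acid binding protein of adipocytes. For Ebf1 they were Dlc1 (0.963), Gsn (0.962) and Wwc2 (0.96), and for Ebf2 Gsn (0.89), Pon3 (0.883) and Fcgrt (0.882). Rxra was most like Gzf1 (0.932), Wwc2 (0.93) and Osbpl11 (0.926). Gsn appeared for both Ebf genes, and Wwc2 for Ebf1 and Rxra.

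Among the genes most like Nr1h3 were Acp5 (0.932) and Mrap (0.927), the melanocortin receptor accessory protein. Klf15 was most like Fam214a (0.92), Syde2 (0.918) and Map3k6 (0.91), and Zfp423 like Klhdc7a (0.912), Tenm4 (0.903) and Ehd2 (0.903). Cebpb and Ppara had less close neighbours, Rhob (0.8), Zfp948 (0.773) and Slc8b1 (0.773) for Cebpb and Zc3h7b (0.828), Lrba (0.827) and Nbea (0.823) for Ppara. Among the members themselves, residual r was 0.915 for Pparg with Cebpa, 0.895 for Ebf1 with Rxra, 0.897 for Cebpa with Nr1h3 and 0.863 for Ebf1 with Ebf2. Ppara was the one member without a high value, with r from -0.458 (Cebpb) to 0.314 (Klf15). These residuals hold the large deviations of SZ-A 400 library 6, and their weight in the r values was not tested.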

How the data were processed

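RNA of 43 epididymal fat samples was extracted with TRIzol and sequenced as poly(A)-selected, strand-specific libraries, per the labels' protocols. The authors deposited raw counts per gene and FPKM, per the file headers. The genome build is mm10 per the submitters' processing notes, and which aligner, counter and annotation were used is not given in the sources used here. Gene coordinates were copied from the files, and promoter windows came from RefSeq tables of GRCm38.p6, the build also named mm10. These positions do not match. The Klf15 window at chr6:90462326-90462625 lies past the end of that plus-strand gene in the files (90452220). Which build the files' coordinates follow is not given, so they should not be read as mm10 positions. The deposited FPKM equalled count per length and library total times a constant for each library (0.776 to 1.15).

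Counts were tested with edgeR 4.0.16 (R 4.3.3): TMM factors, filterByExpr (20218 of 56748 genes left), 1 robust quasi-likelihood fit over all 5 groups, and Benjamini-Hochberg adjustment over all genes. Normalised CPM use TMM factors, and log2 CPM for relations a prior count of 2. Alternatives used DESeq2 1.42.0, limma 3.58.1 (voom with quality weights, and limma-trend on log2 FPKM with pseudocounts of 1 and 0.1), other filters and factors, and subsets of libraries. Relations used permutation tests with 100000 resamples (scipy 1.17.1). The library sets were split at the largest gap in the share of small noncoding RNA. A library was taken to hold other tissue RNA where at least 100 genes of 10 CPM or more were over 20 times their median of all 43 libraries. That median was taken as at least 0.05 CPM. Depth ran from 32716294 to 44259619 counts per library. No 2 libraries were identical.

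The 10 genes, the lists and the tests were chosen with earlier results of these data known. Genes named from a list are the 3 called genes with the smallest p in each direction. Some genes that meet the rules for naming are not reported here. Scripts were tested on simulated data.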

Additional observations from a re-analysis of the deposited data

Results flagged for a closer look

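In each group of 7 to 10 libraries, the gap between the highest or lowest library and its neighbour was set against Dixon's 95% value, in normalised CPM. Of 50 combinations of gene and group, 9 had a library far from the others. Chance gives about 1 in 20 where combinations are independent and values normal. Here the genes varied together, several flags share a library and CPM were not log-scaled, so that rate cannot measure an excess. Of these, 4 were in libraries with other tissue RNA at low values: Cebpa was at 370 CPM in SD library 4 (next 778) and at 366 in SZ-A 600 library 6 (next 746), Ebf1 at 97 in SD library 4 (next 170) and Nr1h3 at 49.7 in SZ-A 600 library 6 (next 99.5). Ppara was high in such a library, at 16.2 CPM in SZ-A 400 library 6 (next 8.26). HFD library 8 was high for Klf15, at 127 CPM (next 57), and for Nr1h3, at 179 (next 123), and had the highest adipocyte marker sum of its group (86230 CPM). In SZ-A 200, Ebf2 was at 49.5 CPM in library 9 (next 30.3), and Zfp423 at 106 in library 1 (next 71).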

How the results depend on the processing

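No called value changed direction in any alternative that was run. With all 43 libraries, edgeR called 3 members in HFD against SD, 0, 1 and 1 at 200, 400 and 600 against HFD, 1 in the dose trend, and 1, 1 and 0 at 200, 400 and 600 against SD. Of 109 list genes it called 39 in HFD against SD, 0, 6 and 12 at the doses against HFD and 14 in the trend. Of all genes it called 31.7% in HFD against SD, 11.6% in SZ-A 600 against HFD and 14.7% in the dose trend, either way. Shares of all genes given below are for these 3 comparisons in that order. They were counted only for the settings of library set and other tissue RNA. Settings with a value other than these by more than 1.5 times follow, and the cause of each change was not tested beyond what the setting itself removes. With limma voom and quality weights, the members called numbered 7 in HFD against SD, SZ-A 600 against HFD and the dose trend, 8 in SZ-A 200 against SD and SZ-A 400 against SD and 6 in SZ-A 600 against SD. List genes then numbered 89 in HFD against SD, 5 in SZ-A 200 against HFD, 13 in SZ-A 400 against HFD, 63 in SZ-A 600 against HFD and 61 in the dose trend. With the replicate block, the members called numbered 5 in HFD against SD, 3 in SZ-A 600 against HFD, SZ-A 200 against SD and SZ-A 400 against SD and 2 in the dose trend and SZ-A 600 against SD. For list genes the counts were 65 in HFD against SD, 26 in SZ-A 600 against HFD and 28 in the dose trend. Within library set 1, the members called numbered 7 in HFD against SD, 0 in SZ-A 400 against HFD, 4 in SZ-A 600 against HFD, 5 in the dose trend and 2 in SZ-A 200 against SD and SZ-A 400 against SD. Of the list genes, calls were 65 in HFD against SD, 15 in SZ-A 200 against HFD, 16 in SZ-A 400 against HFD and 50 in SZ-A 600 against HFD and the dose trend. The shares of all genes were 36.4%, 29.6% and 27.4%. Within library set 2, the members called numbered 0 in HFD against SD, SZ-A 400 against HFD, SZ-A 600 against HFD, the dose trend, SZ-A 200 against SD and SZ-A 400 against SD. There were list gene calls of 2 in HFD against SD, 1 in SZ-A 400 against HFD and 0 in SZ-A 600 against HFD and the dose trend. The shares of all genes were 1.59%, 0.0183% and 0.0183%. Without the 4 libraries with other tissue RNA, the members called numbered 6 in HFD against SD, 0 in SZ-A 400 against HFD, 3 in SZ-A 600 against HFD and SZ-A 400 against SD, 2 in the dose trend and SZ-A 200 against SD and 1 in SZ-A 600 against SD. List genes then numbered 0 in SZ-A 400 against HFD, 25 in SZ-A 600 against HFD and 24 in the dose trend. The shares of all genes were 36.2%, 11.4% and 10.5%. Without those 4 and with library set as a term, the members called numbered 7 in HFD against SD, 0 in SZ-A 400 against HFD, 4 in SZ-A 600 against HFD and the dose trend, 3 in SZ-A 200 against SD and SZ-A 400 against SD and 2 in SZ-A 600 against SD. For list genes the counts were 61 in HFD against SD, 0 in SZ-A 400 against HFD, 43 in SZ-A 600 against HFD and 37 in the dose trend. The shares of all genes were 43.8%, 24.9% and 23.9%. Within set 1 without those libraries, the members called numbered 8 in HFD against SD, 1 in SZ-A 200 against HFD, 0 in SZ-A 400 against HFD, 6 in SZ-A 600 against HFD, 4 in the dose trend and SZ-A 400 against SD and 2 in SZ-A 200 against SD. Of the list genes, calls were 68 in HFD against SD, 21 in SZ-A 200 against HFD, 0 in SZ-A 400 against HFD, 56 in SZ-A 600 against HFD and 52 in the dose trend. The shares of all genes were 39.9%, 33.9% and 28.8%. Within set 2 without those libraries, the members called numbered 0 in SZ-A 400 against HFD, SZ-A 600 against HFD, the dose trend, SZ-A 200 against SD and SZ-A 400 against SD. There were list gene calls of 13 in HFD against SD and 0 in SZ-A 400 against HFD, SZ-A 600 against HFD and the dose trend. The shares of all genes were 9.66%, 0% and 0.00922%. At an adjusted p under 0.01, the members called numbered 0 in SZ-A 400 against HFD, SZ-A 600 against HFD, the dose trend, SZ-A 200 against SD and SZ-A 400 against SD. List genes then numbered 21 in HFD against SD, 2 in SZ-A 400 against HFD and 0 in SZ-A 600 against HFD and the dose trend. With limma-trend on log2(FPKM + 1), the members called numbered 0 in SZ-A 400 against HFD, SZ-A 600 against HFD and the dose trend and 2 in SZ-A 400 against SD. For list genes the counts were 0 in SZ-A 400 against HFD. With limma-trend on log2(FPKM + 0.1), the members called numbered 0 in SZ-A 400 against HFD and 2 in SZ-A 400 against SD. Of the list genes, calls were 0 in SZ-A 400 against HFD. With no filter on low counts, the members called numbered 0 in SZ-A 400 against HFD. With only the compared groups in the fit, the members called numbered 0 in SZ-A 400 against HFD and SZ-A 400 against SD, 3 in SZ-A 600 against HFD and 2 in SZ-A 600 against SD. There were list gene calls of 0 in SZ-A 400 against HFD. With library set as a term, the members called numbered 2 in SZ-A 600 against HFD and SZ-A 400 against SD. List genes then numbered 10 in SZ-A 400 against HFD, 23 in SZ-A 600 against HFD and 25 in the dose trend. The shares of all genes were 35.3%, 21.4% and 25.1%. With DESeq2's Wald test, the members called numbered 2 in SZ-A 400 against SD and 1 in SZ-A 600 against SD. For list genes the counts were 22 in SZ-A 600 against HFD. With a further minimum of 1.5-fold, the members called numbered 0 in the dose trend. Of the list genes, calls were 7 in SZ-A 600 against HFD and 0 in the dose trend. With DESeq2 size factors in edgeR, the members called numbered 2 in SZ-A 400 against SD. With upper-quartile factors in edgeR, the members called numbered 2 in SZ-A 400 against SD. With a filter of 1 CPM in at least 7 libraries, the members called numbered 2 in SZ-A 400 against SD. Leaving out 1 library at a time gave 3 to 5 members in HFD against SD (5 without HFD library 8), 0 to 1 at 400 and 0 to 2 at 600 against HFD, 0 to 2 in the trend, 1 to 2 at 200 and at 400 against SD, and 0 at 200 against HFD and at 600 against SD. For list genes the ranges were 30 to 51 for diet, 1 to 10 at 400 (10, 3 and 1 without SZ-A 400 library 2, 3 or 6), 5 to 30 at 600 and 10 to 30 in the trend. At 600 there were 30 without HFD library 8, 5 without HFD library 3, 6 without HFD library 1 or 4, and 7 without HFD library 5 or 6 or SZ-A 600 library 7. In the trend there were 30 without HFD library 8 and 23 without SZ-A 400 library 2.

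By normalised CPM in place of FPKM, which leaves transcript length in, Rxra ranked 2, Pparg 3, Ebf1 4, Nr1h3 5, Cebpb 6, Zfp423 7 and Klf15 8, and Cebpa, Ebf2 and Ppara kept their places. Upper-quartile factors moved the median log2 fold change of all genes in HFD against SD from -0.05 to -0.17, and the members called there were still 3. Of 19 relations, 13 had an adjusted p under 0.05, and 9 to 16 did over the alternatives.

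The labels do not say that a replicate number marks a shared source, and the numbers were not taken to pair the libraries because not every pair of libraries correlated. Over 79 pairs of libraries with the same number, the correlation of deviations from group means ran from -0.357 to 0.542 (median 0.197, against -0.0351 for libraries with other numbers, with 48 pairs over 0.1), and 10 of 43 libraries correlated best with one of their own number. In the high-fat groups, numbers up to 5 were in library set 1 and higher numbers in set 2. The difference between the sets therefore enters these correlations and the replicate block. With the replicate block, Pparg in HFD against SD was at -0.82 (edgeR adjusted p = 0.0458) and Klf15 at -1.2 (0.00964). Depth limits Ppara most, with 40 counts in its lowest library. The fits within 1 library set without the libraries with other tissue RNA were chosen after seeing the data.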

Other observations

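Markers of other cell types were measured in the same libraries. The sum of 8 B cell markers had medians of 262 CPM in SD, 506 in HFD, and 371, 447 and 213 in SZ-A 200, 400 and 600, and 1 library of SZ-A 200 reached 8700 CPM. In SZ-A 600 against HFD, 5 of the 8 were lower in edgeR's quasi-likelihood test, where 6.47% of all genes were. Ms4a1 (CD20) was among them, at 0.434 ± 0.257 CPM (SD, n = 9) against 5.04 ± 13.1 (SD, n = 10) in HFD, so the spread in HFD was wider than its mean. Ebf1, a factor of early B cells as well as of fat, was not called in that comparison in the edgeR fit with group only. The sum of 10 preadipocyte markers had medians of 1240 CPM in SD, 2520 in HFD and 1550 in SZ-A 600, and 3 of the 10 (Lum, Pi16 and Icam1) were lower in SZ-A 600 than in HFD. The sum of 10 endothelial markers had medians of 2270 CPM in SD, 1370 in HFD and 1370 in SZ-A 600.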
